A study of Homo sapiens with 3 samples.

Results

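The major histocompatibility complex (MHC) on the short arm of chromosome 6 was examined for binding of ΔNp63α and ZNF148 in FaDu cells. FaDu cells, an established line, derive from a pharyngeal squamous cell carcinoma and were grown untreated. Chromatin immunoprecipitation followed by sequencing (ChIP-seq) was done with an antibody against ΔNp63α in 1 library and an antibody against ZNF148 in another. Input DNA, taken without antibody, was the last of the 3 samples, and no peak list of it was used here. The DNA came from 3 independent ChIP assays per the labels, but each antibody has 1 list of peaks. No value below therefore has a replicate error, and no p-value is given.

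Members were all deposited peak rows with a summit between 29600000 and 33400000 on chromosome 6 of the build hg19, a region of 3.8 Mb. The region was divided by position into a class I part (29.6 to 31.5 Mb), a class III part (31.5 to 32.3 Mb) and a class II part (32.3 to 33.4 Mb). It held 223 rows, 44 of the 21922 p63 rows and 179 of the 39669 ZNF148 rows. Rows that repeat 1 interval with another summit were counted as 1 peak, which left 44 p63 and 167 ZNF148 peaks. These were 0.204% and 0.441% of the analysed peaks of each list, in 0.129% of the analysed length.

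The class I part is named for the class I molecules, which display peptides from inside the cell to CD8+ T cells. The class II part carries the HLA-DR, HLA-DQ and HLA-DP genes, which present engulfed antigen to CD4+ T cells, and the TAP and PSMB genes that prepare peptides for class I. The class III part between them is known for complement genes, tumour necrosis factor and heat shock genes, and is among the most gene-dense stretches of the genome. ΔNp63α is the truncated p63 form of basal squamous cells, a transcription factor of the p53 family, while ZNF148 (also called ZBP-89) recognises GC-rich DNA through its zinc fingers. No hg19 gene annotation or sequence was used, so peaks are given by position and none is assigned to a gene.

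Each peak carries a fold enrichment, which is the authors' ratio of stacked fragments to the local background at the summit. Fold and p-value together also gave back the number of DNA fragments stacked at each summit and the background there. A whole number of fragments matched the deposited −log10 p to within 1.53e-05 in all 211 peaks of the region. The p63 summits rested on 13 to 162 fragments (median 34.5) and the ZNF148 summits on 5 to 121 (median 14). Medians outside the region were 38 and 14. In the region, 60 of 167 ZNF148 peaks (35.9%) and 0 of 44 p63 peaks stood on 10 fragments or fewer. Outside it the shares were 31.1% and 0.154%. The weaker ZNF148 peaks are therefore the less precise values. The lowest background of a list, here and below, was taken as its most frequent recovered value. It was 1.27 fragments for p63 and 0.386 for ZNF148, a ratio of 3.28. A fragment therefore counts for more in a ZNF148 fold than in a p63 fold.

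**Figure D1:**
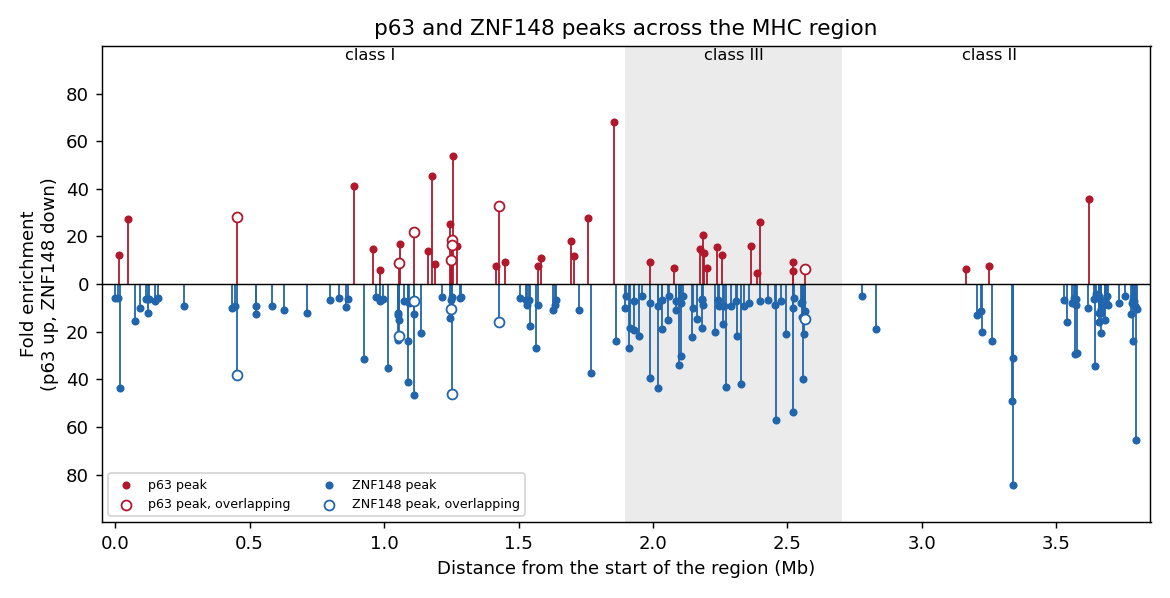
Fold enrichment (vertical axis, p63 upward and ZNF148 downward) of every peak against its distance from the start of the region in Mb. Each line is 1 peak, open circles overlap a peak of the other protein, and the shaded band is the class III part. The 3 p63 peaks of the class II part stand apart from one another, while ZNF148 peaks reach their highest fold of the region, 84.2, in that part.

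ZNF148 peaks were denser in the MHC, on average, than on the rest of chromosome 6. The region had 43.9 ZNF148 peaks per Mb, against 10.4 on the rest of chromosome 6, a ratio of 4.21. The 5 Mb on each side had 22.9 per Mb, and the ratio to these flanks was 1.92. p63 peaks numbered 11.6 per Mb, against 7.15 on the rest of chromosome 6, a ratio of 1.62. The p63 density did not exceed that of the flanks, which had 11.7 per Mb (ratio 0.990). Among 44 windows of the same length laid along chromosome 6, the region had the second highest number of ZNF148 peaks, and 2 windows had more p63 peaks. Only the window from 41 to 44.8 Mb had more ZNF148 peaks (184 against 167), and it also had more p63 peaks (68 against 44), as did the adjacent window from 33.4 to 37.2 Mb (66).

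The class III part was the densest for both proteins. ZNF148 had 57 peaks there, or 71.2 per Mb, against 33.7 per Mb in the class I part (64 peaks) and 41.8 per Mb in the class II part (46 peaks). The class III part made up 21.1% of the length and held 34.1% of the region's ZNF148 peaks (95% Wilson interval 27.4 to 41.6%). p63 had 14 peaks in the class III part, or 17.5 per Mb, and 27 in the class I part, or 14.2 per Mb. Its share in the class III part was 31.8% (20 to 46.6%), and this interval includes the share of length. These intervals, like all others given, hold counting error alone and take the peaks to be independent.

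p63 was sparse in the class II part. That part made up 28.9% of the length and held 3 of 44 p63 peaks, or 6.82% (2.35 to 18.2%), with a density of 2.73 per Mb. The rest of chromosome 6 had 7.15 per Mb. ZNF148 had 27.5% of its peaks there (21.3 to 34.8%), close to the share of length. They were uneven within the part, and of these 46 peaks the 100 kb bins from 33.1 to 33.4 Mb held 8, 17 and 12. Taken over whole parts, the number of ZNF148 peaks per p63 peak therefore differed between them. It was 2.37 in the class I, 4.07 in the class III and 15.3 in the class II part, the last on 3 p63 peaks. The same number was 1.46 on the rest of chromosome 6, 1.96 in the 5 Mb flanks and 1.76 outside the region. List lengths depend on depth, but both lists enter each of these ratios in the same way.

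**Figure D2:**
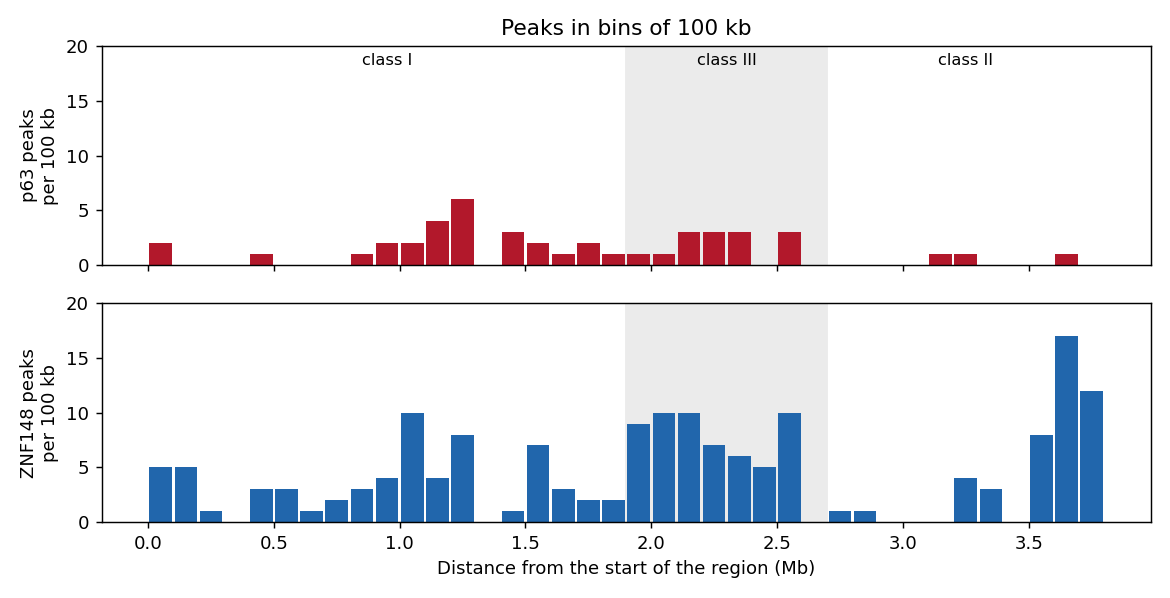
Number of peaks in each bin of 100 kb (vertical axis) against distance from the start of the region in Mb, with p63 above and ZNF148 below and the class III part shaded. The highest bins hold 6 p63 peaks, in the class I part, and 17 ZNF148 peaks, in the class II part.

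At a finer scale the peaks were uneven, with no ZNF148 peak in 7 bins and no p63 peak in 17. Of 38 bins of 100 kb, 20 held peaks of both proteins and 6 held none. ZNF148 peaks were the more numerous in 28 bins and p63 peaks in 2. The bin from 30.8 to 30.9 Mb had the most p63 peaks, 6, together with 8 ZNF148 peaks. The bin from 33.2 to 33.3 Mb had the most ZNF148 peaks, 17, with 1 p63 peak. In the class III part, 7 of the 8 bins held 5 to 10 ZNF148 peaks, and the last bin, next to the class II part, was empty.

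The longest stretch without a peak of either protein lay in the class II part, from 32427747 to 32765433, over 338 kb. It divided that part unevenly. The 128 kb before it held 2 ZNF148 and 0 p63 peaks, and the 635 kb after it held 44 ZNF148 and 3 p63 peaks. For p63 alone the empty stretch was longer, 602 kb from 32163668 to 32765433, and crossed from the class III into the class II part. Stretches of at least 338 kb without a peak of either list occurred 1085 times over the analysed chromosomes and 59 times on chromosome 6. The length is thus not unusual over all analysed sequence, which outside the region has fewer peaks per Mb (7.29 for p63 and 12.8 for ZNF148). In the region the median gap between peaks of either list was 6.92 kb. How unusual 338 kb is at the region's density was not tested. No row of either list lay on an alternative haplotype contig of chromosome 6, and the sources used here do not say whether such contigs were in the alignment reference. Whether reads could be placed equally well along the region was not tested.

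The 5 most significant p63 peaks of the MHC were all in the class I part. The most significant lay at 31455231 to 31455779, with a fold of 68.0 on 153 fragments (exact Poisson interval 130 to 179), and ranked 383 of 21520 in its list. The peak at 30488849 to 30489276 had more fragments, 162 (138 to 189), but a lower fold of 41.1, since its local background was 2.34 times the lowest of the list. Next came 30857960 to 30858251 with a fold of 53.7 on 124 fragments, and 31025826 to 31026124 with a fold of 32.7 on 161. The latter also stood on a raised background, 3.13 times the lowest. The fifth, at 30778643 to 30779090, had a fold of 45.6 on 105 fragments. Of these 5 peaks, only that at 31025826 overlapped a ZNF148 peak.

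p63 peaks of the other parts were weaker, on the median. Median folds were 16.3 in the class I, 10.9 in the class III and 7.72 in the class II part, on 27, 14 and 3 peaks. None of the 17 p63 peaks outside the class I part was among the most significant 10% of the p63 list. Within it 4 of 27 were, or 14.8% (5.92 to 32.5%). Upper bounds were 21.5% in the class III and 56.1% in the class II part, so these counts do not separate the parts. In the class III part, the most significant p63 peak lay at 31996503 to 31996754, with a fold of 26.2 on 77 fragments. It was followed by 31786705 to 31786933 (fold 20.5), 31790960 to 31791233 (fold 12.9), 31963771 to 31964025 (fold 15.9) and 31838233 to 31838489 (fold 15.4). In the class II part, a single p63 peak was strong, at 33222462 to 33222729 with a fold of 35.8 on 80 fragments (63.4 to 99.6). The remaining pair had folds of 7.72 at 32850057 to 32850227 and 6.23 at 32765434 to 32765611, on 22 and 19 fragments.

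For ZNF148 the order of the parts was different, and the strongest site lay in the class II part. There, 3 peaks followed one another between 32936026 and 32940037. The middle peak, at 32937523 to 32938937, had 3 summits with folds of 41.9, 41.5 and 84.2. Its strongest summit stood on 121 fragments (100.4 to 145) and ranked 72 of 37883 in the list. The peak before it, at 32936026 to 32937213, also had 3 summits, with folds of 34.8, 48.9 and 47.4. The third, at 32939568 to 32940037, had a fold of 31.0 on 44 fragments. The nearest p63 summit was 86562 bp from that of the first of these peaks.

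Other strong ZNF148 peaks of the class II part lay near its end. The peak at 33395527 to 33396261 had a fold of 65.7 on 90 fragments (72.4 to 111) and ranked 323. The peak at 33244785 to 33245454 had a fold of 34.6 on 75 fragments, on a background 3.10 times the lowest. Both belonged to stretches of 10 ZNF148 peaks no more than 10 kb apart, from 33378389 to 33399462 and from 33240213 to 33267295. Neither stretch held a p63 peak. Stretches of 3 or more held 92 of the region's 167 ZNF148 peaks, or 55.1% (47.5 to 62.4%), against 32.4% of the whole ZNF148 list and 21.2% on the rest of chromosome 6. The class II part had 35 of its 46 ZNF148 peaks in them, the class III part 27 of 57 and the class I part 30 of 64. Such stretches move with the density of peaks.

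In the class III part the leading ZNF148 peaks were spread over most of its length. The most significant lay at 32055363 to 32055801, with a fold of 57.0 on 78 fragments (61.7 to 97.3), and at 32121750 to 32122111, with a fold of 53.8 on 85 (67.9 to 105). Their fragment intervals overlap, so these counts do not rank them. The peak at 32157510 to 32158481 had summits of fold 28.1 and 40.0, and that at 31869063 to 31869990 had summits of fold 7.50 and 43.1. The fifth, at 31620336 to 31620734, had a fold of 43.4 on 60 fragments. The same fold and fragment number were found at 29618252 to 29618547 in the class I part.

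The remaining leading ZNF148 peaks of the class I part had folds between 37.2 and 46.6. These were 30710105 to 30710590 (fold 46.6), 30851749 to 30852359 (fold 46.3), 30688984 to 30689296 (fold 41.3) and 31368473 to 31368856 (fold 37.2), on 63 to 65 fragments each. Only the peak at 30851749 overlapped p63. Median ZNF148 folds were 9.91, 10.0 and 9.67 in the class I, class III and class II parts. The parts thus differed in the number of ZNF148 peaks per Mb and hardly in their median strength.

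**Figure D3:**
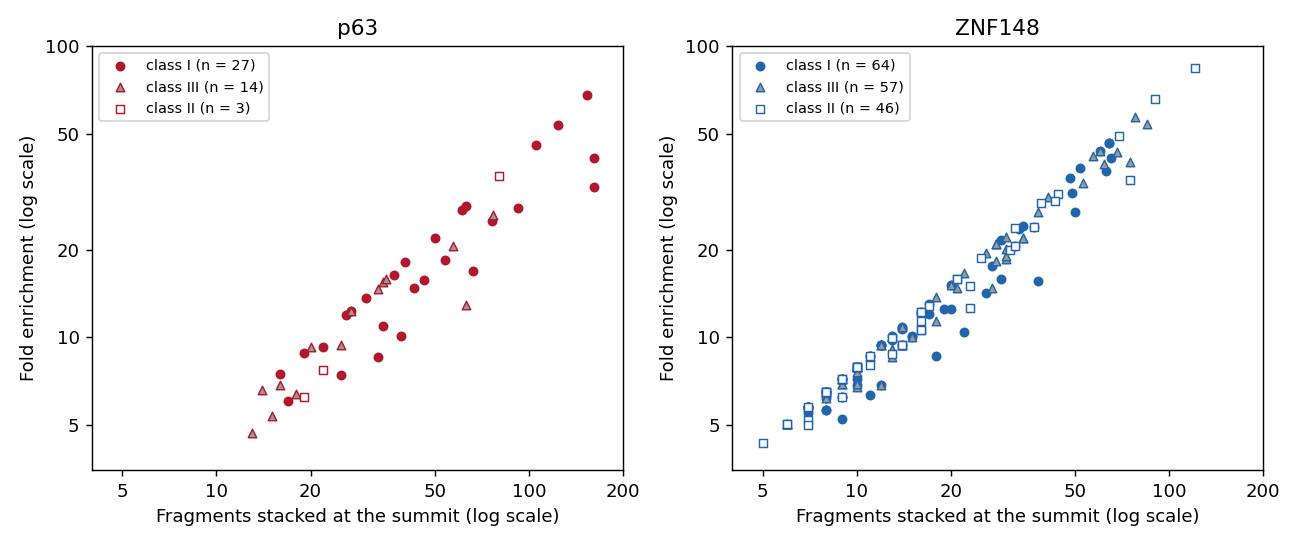
Fold enrichment against the number of fragments stacked at the summit, both on log scales, for each p63 peak (left) and ZNF148 peak (right), with symbols for the 3 parts. The upper edge of the points in each list is formed by peaks at the lowest background, and points below it are peaks with a raised local background, such as the p63 peaks with 161 and 162 fragments and folds of 32.7 and 41.1.

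The strength of the peaks as a whole resembled that elsewhere. A fold of 10 or more was reached by 29 of 44 p63 peaks, or 65.9% (51.1 to 78.1%), where the whole list had 65.1%. For ZNF148 it was 83 of 167, or 49.7% (42.2 to 57.2%), where the whole list had 49.6%. The median fold was 14.2 for p63 (quartiles 8.76 and 22.7) and 13.2 outside the region. For ZNF148 it was 9.97 (6.92 and 19.3) and 9.83 outside. Local background was not raised either. It was at the lowest level of its list in 34.1% of p63 peaks (21.9 to 48.9%, whole list 31%) and in 44.3% of ZNF148 peaks (37.0 to 51.9%, whole list 43.5%). The median background was 1.28 times the lowest for p63 and 1.05 times for ZNF148, against 1.40 and 1.08 outside.

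ZNF148 peaks with several summits made up 10 of 167, or 5.99% (3.28 to 10.7%), against 3.56% outside. The class II part held 6 of the 10. For p63 there were 0 of 44, which allows a share of up to 6.82% by a limit of 3 counts (Wilson upper bound 8.03%), and 0.847% outside.

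Since the study concerns cooperation of the 2 proteins, overlap of their peaks was examined within the MHC. A p63 peak was called overlapping when it had at least 1 bp in common with a ZNF148 peak. This held for 8 of 44 p63 peaks, or 18.2% (9.51 to 32.0%), against 21.2% of the whole p63 list. It held for 7 of 167 ZNF148 peaks, or 4.19% (2.05 to 8.40%), against 12.1% of the whole ZNF148 list and 14.3% on the rest of chromosome 6. The last interval lies below both of those shares. In the 5 Mb flanks the ZNF148 share was 6.55% (4.01 to 10.5%), and that interval overlaps the one of the region. The p63 share of the flanks was 12.8% (7.93 to 20.1%), and its interval also overlaps that of the region.

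The region also had more ZNF148 peaks per p63 peak, 3.80 against 1.76 outside. There were 0.159 overlapping ZNF148 peaks per p63 peak in the region and 0.212 outside. At the outside rate per p63 peak, 5.60% of the region's ZNF148 peaks would overlap, where 4.19% did. That figure follows from the p63 overlap given above, so it is not a separate comparison. Whether the number of peaks accounts for the low ZNF148 share was not tested. Ranks give another comparison, which leaves that difference in number in place. At the rates found outside the region in the same rank classes, each 10% of the list, its 167 ZNF148 peaks would include 21.9 overlapping ones, where 7 were found. The corresponding number for p63 was 8.89, where 8 were found. With lists of equal length, 6.19% of the region's ZNF148 peaks overlapped p63 (2.87 to 12.8%), against 18.8% outside. The region then still had 2.2 ZNF148 peaks per p63 peak, against 0.998 outside. Among the 20 ZNF148 peaks of the region among the most significant 10% of their list, 2 overlapped p63, or 10% (2.79 to 30.1%), against 46.2% of such peaks outside. Neither comparison removes the difference in number.

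**Figure D4:**
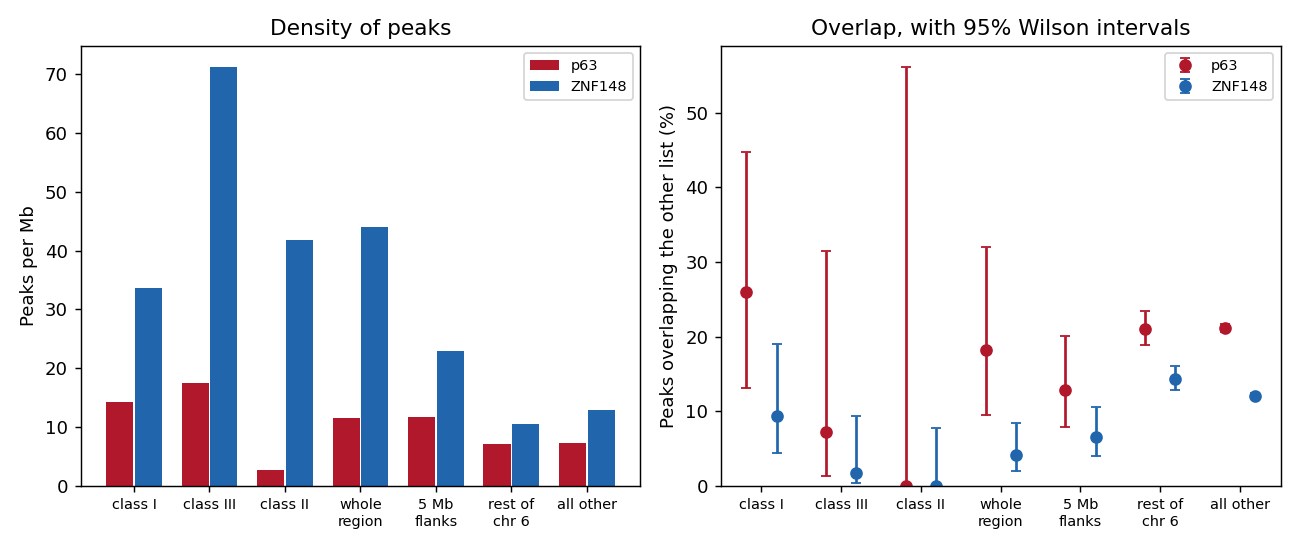
Peaks per Mb (left) and percent of peaks that overlap the other list (right) for p63 and ZNF148 in the 3 parts, the whole region, the 5 Mb flanks, the rest of chromosome 6 and all other analysed sequence. Bars on the right are 95% Wilson intervals, and the ZNF148 share of the region (4.19%) lies under that of the rest of chromosome 6 (14.3%) while its density is 4.21 times as high.

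Of the 8 overlapping p63 peaks, 7 lay in the class I part, 1 in the class III part and none in the class II part. The class I share was 25.9% (13.2 to 44.7%) and the class III share 7.14% (1.27 to 31.5%), and these intervals overlap. In the class II part 0 of 46 ZNF148 peaks overlapped p63, which allows a share of up to 6.52% if 3 counts are taken as the limit for a count of 0 (Wilson upper bound 7.71%). That part had only 3 p63 peaks, so few of its ZNF148 peaks could overlap one. The count of 0 therefore does not show a lower overlap there.

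Summits lay within 25 bp of each other at 3 of these sites, or 6.82% of the p63 peaks (2.35 to 18.2%, whole list 13.5%). The same 3 sites were 1.80% of the ZNF148 peaks, against 7.67% of that whole list. In the 5 Mb flanks the shares were lower than in the region, with overlapping intervals. They were 1.71% of the p63 peaks (0.470 to 6.02%) and 0.873% of the ZNF148 peaks (0.240 to 3.13%). Folds of the 2 lists are not on 1 scale, so the rank of each peak in its own list is given with them. At 30053817 to 30054106 the p63 fold was 28.2 (rank 5507 of 21520) and the ZNF148 fold 38.2 (rank 2695 of 37883), with summits 16 bp apart. At 30655196 to 30655389 the p63 fold was 8.83 (rank 17012) and the ZNF148 fold 21.6 (rank 7025), with summits 13 bp apart. At 30852041 to 30852309 the p63 fold was 16.3 (rank 9934) and the ZNF148 fold 46.3 (rank 1596), with summits 14 bp apart. The intervals of the ZNF148 partners were 30053770 to 30054122, 30655152 to 30655455 and 30851749 to 30852359.

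The other 5 pairs overlapped with more distant summits. The p63 peak at 30712430 to 30712672 had a fold of 21.9, and its ZNF148 partner a fold of 7.21 on 9 fragments (4.12 to 17.1), with summits 50 bp apart. At 31025826 to 31026124 the folds were 32.7 for p63 and 15.8 for ZNF148, with summits 55 bp apart. At 32163465 to 32163667, the single pair of the class III part, the p63 fold was 6.38 and the ZNF148 fold 14.7, at 53 bp. The pair at 30850481 to 30850694 had a p63 fold of 10.1 and a ZNF148 fold of 10.5, at 102 bp. The peak at 30851647 to 30851892 (fold 18.5) touched the same ZNF148 interval as the one at 30852041. Its summit was 397 bp from the strongest ZNF148 summit there and 179 bp from the weaker summit of that interval, which had a fold of 22.5.

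The overlapping p63 peaks at 30850481, 30851647 and 30852041 belonged to the only p63 stretch of the region. This stretch, from 30843908 to 30858251, held 5 p63 peaks no more than 10 kb apart, with folds of 10.1 to 53.7, and 5 ZNF148 peaks. These 5 were 11.4% of the region's p63 peaks (4.95 to 24.0%), where such stretches held 7.16% of the whole p63 list. Its strongest p63 peak, at 30857960, had no ZNF148 summit within 5 kb, the nearest being 5536 bp away.

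Outside the overlaps, 6 further p63 peaks had a ZNF148 summit within 1 kb, so that 14 of 44, or 31.8% (20 to 46.6%), had one in all, against 26.4% of the whole list. Of these 6, 4 lay in the class III part. At 31786705 to 31786933 a p63 peak of fold 20.5 lay 492 bp from a ZNF148 summit of fold 8.59. At 32121375 to 32121525 a p63 peak of fold 5.37 (rank 21056) lay 475 bp from a ZNF148 summit of fold 53.8 (rank 700). A second p63 peak beside it, at 32120913 to 32121233 (fold 9.27), lay 355 bp from another ZNF148 summit (fold 10.0). The other class III neighbour, at 31590407 to 31590643, had a p63 fold of 9.39 and a ZNF148 fold of 7.94 at 589 bp. The 2 class I neighbours, at 30584977 to 30585127 and 31171115 to 31171292, had p63 folds of 6.05 and 7.42.

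In the class III part 5 of 14 p63 peaks thus lay within 1 kb of a ZNF148 summit, or 35.7% (16.3 to 61.2%). The class I part had 9 of 27, or 33.3% (18.6 to 52.2%), and both intervals include the 26.4% of the whole list. Of the 14 class III peaks 1 overlapped, and none was farther than 15785 bp from a ZNF148 summit. The median distance was 4110 bp, against 7297 bp in the class I part and 11760 bp for p63 peaks outside the region. Seen from ZNF148, 61.1% of the region's peaks (53.5 to 68.1%) were more than 20 kb from any p63 summit, against 50.7% outside. These distances move with the densities of both lists.

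The sequences of the peaks could not be read without an hg19 genome, and the genes of the region were described from RefSeq promoters instead (GRCh38.p14, 250 bases before to 50 after a start, the first listed per gene). Peaks were not placed on these promoters. The GC box, GGGCGG on either strand, is a common GC-rich promoter element. It was present in 58.5% of 15842 protein-coding promoters. From DDX39B to NOTCH4, the class III genes, 32 of 52 promoters held it, or 61.5% (48.0 to 73.5%). From HLA-F to MICB in class I it was 22 of 43 (51.2%, 36.8 to 65.4%), and from HLA-DRA to DAXX in class II 13 of 29 (44.8%, 28.4 to 62.5%). All 3 intervals include the overall share.

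Of the 43 listed genes of the region with a promoter, 21 held the box. It was present in 3 of 6 class I presentation genes, 5 of 8 complement, cytokine and heat shock genes of class III, and 7 of 12 epithelial and chromatin genes. All 5 promoters of the antigen-processing genes TAP1, TAP2, TAPBP, PSMB8 and PSMB9 held it, with a GC content of 60% to 68.3%. Of 12 promoters of class II presentation genes, 1 held it, that of HLA-DPA1, and their median GC content was 45.7%. The promoters of PSMB9, an immunoproteasome subunit, and of TAPBP, which bridges class I molecules to the TAP peptide transporter, are shown beside that of HLA-DRB1, which encodes a class II chain, as examples from the lists with the highest and lowest share. Letters in capitals mark GGGCGG or its reverse complement. It occurs 2 times in the first, 3 times in the second and not in the third, whose GC content is 43.3%.
PSMB9: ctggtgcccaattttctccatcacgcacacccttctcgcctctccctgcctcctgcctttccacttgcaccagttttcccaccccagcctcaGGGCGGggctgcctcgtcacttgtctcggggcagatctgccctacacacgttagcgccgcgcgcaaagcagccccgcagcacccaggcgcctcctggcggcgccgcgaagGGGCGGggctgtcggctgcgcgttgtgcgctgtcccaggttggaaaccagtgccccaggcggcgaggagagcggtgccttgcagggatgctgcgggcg
TAPBP: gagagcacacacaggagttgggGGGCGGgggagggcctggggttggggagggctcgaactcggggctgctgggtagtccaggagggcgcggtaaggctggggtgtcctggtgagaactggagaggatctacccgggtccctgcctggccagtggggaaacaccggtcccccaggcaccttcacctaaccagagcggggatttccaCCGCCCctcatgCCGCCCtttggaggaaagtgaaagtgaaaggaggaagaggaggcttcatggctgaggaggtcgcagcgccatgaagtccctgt
HLA-DRB1: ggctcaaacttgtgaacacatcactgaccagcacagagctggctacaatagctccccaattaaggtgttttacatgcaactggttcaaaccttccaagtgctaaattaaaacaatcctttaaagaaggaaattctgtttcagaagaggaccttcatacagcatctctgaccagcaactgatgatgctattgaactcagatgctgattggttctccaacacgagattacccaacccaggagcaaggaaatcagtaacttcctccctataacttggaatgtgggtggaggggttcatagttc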

How the data were processed

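The deposited narrowPeak lists, 1 per antibody, were used. The submitters' processing notes name Bowtie2 2.3.4.3, SAMtools 1.7, MACS2 2.2.6 and the build hg19 without settings. The sources used here name neither the control library nor the duplicate handling. The deposited fold (a ratio), −log10 p and −log10 q of each peak are the authors' values. The deposited score, the whole part of 10 times −log10 q, was not used.

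Chromosomes 1 to 22 and X were analysed. Rows sharing an interval were merged, and the summit of lowest q stood for the peak. Outside the region, density was taken over each chromosome's span from its first to its last peak. Fragments (k) and background (b) at a summit were solved from fold = (k + 1) / (b + 1) and a Poisson p of more than k fragments, MACS2's definitions, with k whole and a tolerance of 0.001 in −log10 p. This matched 99.97% of p63 and 99.92% of ZNF148 peaks and was tested on simulated data, as was the overlap. The lowest background of a list was its most frequent recovered value, and peaks below 1.001 times it counted as at that level. Exact Poisson and Wilson intervals are at 95%, and a count of 0 was also given a limit of 3 counts.

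Named peaks were the 5 most significant per part and list and all overlapping p63 peaks; neighbours within 1 kb and the 10 kb stretches were added after their values were seen. Members and lists were chosen with earlier results of these data known. Of 51 listed genes, 43 had a RefSeq promoter. Positions are 1-based. Overlaps were checked with bedtools 2.31.1. Calculations used Python 3.11.15, numpy 2.4.6, pandas 2.3.3 and scipy 1.17.1.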

Additional observations from a re-analysis of the deposited data

How the results depend on the processing

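Under 66 alternatives, 58 values changed by less than counting error (for counts, by less than 1.5 times), 7 changed by more and 1 changed direction. The last was the p63 density ratio of 1.62, which became 0.990 against the 5 Mb flanks. The ZNF148 ratio of 4.21 became 1.92 against the flanks and 3.43 against all analysed chromosomes outside the region, chromosome 6 included. With a fold of at least 10, 29 of the 44 p63 and 83 of the 167 ZNF148 peaks were left, and a −log10 q of at least 10 left 103 ZNF148 peaks. ZNF148 peaks per p63 peak fell from 3.80 to 2.2 with lists of equal length (0.998 outside the region). The 3 p63 peaks with close summits became 6 with a limit of 100 bp. The overlap share of ZNF148 ranged from 2.99% to 6.19% over the 5 alternatives run for it, against 10.3% to 18.8% outside. No paired analysis was possible because each antibody has 1 list. ZNF148 peaks near 5 fragments are the least certain, and weaker sites are not in the lists.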

Other observations

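Recovered backgrounds of both lists were set side by side where overlapping peaks had summits within 25 bp. At 2906 such sites over all chromosomes, 3 of them in the MHC, the backgrounds relative to the lowest had a rank correlation (Spearman) of 0.895. Their median difference was 0.00020 on the log2 scale. That is the offset of the 2 lists at the lowest level (0.99998 for p63, 1.00012 for ZNF148), so it does not describe raised backgrounds. At the 3 MHC sites both backgrounds were 1.00 or 1.05 times the lowest. In the MHC the raised backgrounds also recurred at a few steps. The value 1.56 times the lowest was found for p63 at 31996503 and 32163465, among others, and 1.55 times for ZNF148 at 31869063 and 32121750.

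Equal folds recurred among weak ZNF148 peaks. The fold 7.94 was listed in 9 rows of the region, each with 10 fragments at the summit, and 1 fragment more or less moves a fold at the lowest background by 0.722.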
